A study of Arabidopsis thaliana with 12 samples.

Results

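Roots of Arabidopsis thaliana Col-0 seedlings kept for 24 h in liquid medium without phosphate were compared with roots kept for 1.5 h in the same medium, both as mock samples of a study of arsenate. Of 33557 genes with a deposited value, 19345 had at least 1 FPKM (fragments per kilobase of gene length, scaled to library size) in at least 2 of these 4 libraries, and they are the genes described here. Seedlings of both groups had grown for 7 days on plates with 1 mM phosphate (Johnson's medium) and for 2 days on plates without it before they met the liquid medium. Each library came from 60 seedlings, there were 2 libraries per group, and neither group received As(V), the arsenate that other libraries of the series were given at 30 µM. A mock group at 6 h, also of 2 libraries, is used below to place the changes in time.

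The groups lie 22.5 h apart, so the 24 h roots were also older and had spent longer in liquid and longer without phosphate. No library had phosphate throughout and the labels give no clock time, so phosphate depletion, age, time since transfer to liquid and time of day cannot be told apart here. The labels do not say whether the replicates were separate cultures, and p-values then measure only the spread between these samples, which may be technical.

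Plants that run short of phosphate switch on a set of genes through the MYB factors PHR1 and PHL1. SPX proteins, which bind inositol pyrophosphates, hold these factors back while phosphate is ample. The targets include high-affinity transporters, secreted phosphatases, enzymes that replace phospholipids by galactolipids and sulfolipids, the SPX genes themselves, and the microRNA miR399 with the RNAs IPS1 and AT4 that titrate it. In roots, phosphate shortage is also known to alter root hairs, iron handling and growth of the root tip.

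An estimated 15.14 and 14.55 M reads per library lay in genes at 24 h, against 12.78 and 12.99 M at 1.5 h, so that a gene with 1500 bases gained 0.0486 to 0.0584 FPKM from each read. On the log scale the 24 h libraries had a Pearson r of 0.9817 across genes, against 0.9843 for the 1.5 h libraries. At 24 h the libraries differed from each other by at least 2-fold in 220 tested genes, 178 of them higher in replicate 2, and at 1.5 h in 121. Of 6 common reference genes, 5 were not called, ACT2 among them with 629 and 642 FPKM at 24 h, against 614 and 618 FPKM at 1.5 h. GAPC2, a glycolytic enzyme, was the exception at 1961 and 2061 FPKM at 24 h, against 1235 and 1152 FPKM at 1.5 h. Defining root markers were present in all 4 libraries. The endodermal gene CASP1 had 174 and 214 FPKM at 24 h, against 201 and 226 FPKM at 1.5 h. The root hair gene COBL9 had 28.5 and 29.3 FPKM at 24 h, against 31.3 and 33.0 FPKM at 1.5 h. Leaf photosynthesis genes summed to 173.0 and 176.0 FPKM at 24 h, against 316.4 and 184.8 FPKM at 1.5 h, over 11 genes, and none of the 11 was at 0. The 1.5 h libraries differed most in the RBCS genes, and RBCS1A had 41.8 and 40.3 FPKM at 24 h, against 89.2 and 30.8 FPKM at 1.5 h. In whole roots, fewer cells of a type and less RNA per cell cannot be told apart.

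Between 24 h and 1.5 h, 2454 genes were higher and 2310 lower. These are 12.9% and 12.1% of 19024 tested genes, 25.0% together, at an adjusted p under 0.05 in a limma fit of log2(FPKM + 1). The higher count was 1558 without replicate 1 at 1.5 h and 1626 without replicate 2 at 1.5 h, and with the 4 compared libraries alone the counts were 1428 higher and 1424 lower. All differences below are on that scale, 24 h minus 1.5 h, with their SE, and they understate changes of genes near 0. Differences of at least 2-fold were found in 4.91% of genes, 512 higher (2.69%) and 423 lower (2.22%), and the median of all tested genes was -0.01. The groups did not overlap for 60.8% of tested genes. Among all members, 456 reached 1 FPKM in 1 of the groups only and so passed the minimum through that group, 276 through 24 h and 180 through 1.5 h, and 154 of these were called. The scatter plot of all tested genes marks lists such as the phosphate genes, of which 35 of 46 tested were called higher, and the abscisic acid genes, of which 5 of 7 tested were called lower.

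**Figure D1:**
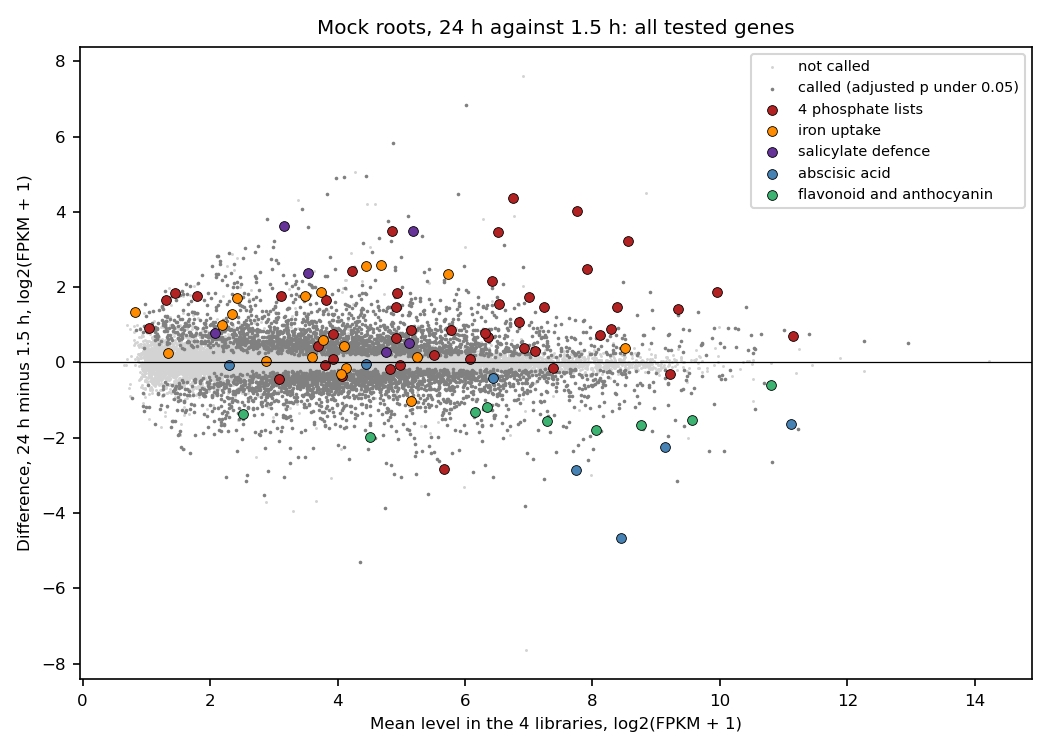
Each point is 1 of 19024 tested genes, with its mean level over the 4 libraries as log2(FPKM + 1) on the horizontal axis and the 24 h minus 1.5 h difference on the vertical axis; light grey points were not called and dark grey points had an adjusted p under 0.05. Coloured points are 5 sets of listed genes: most phosphate (red) and salicylate (purple) genes lie above 0, and most abscisic acid (blue) and flavonoid (green) genes below it.

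Most phosphate starvation genes rose. Over 4 lists (transport, signalling, lipid remodelling and recycling enzymes), 35 of 46 tested genes were higher at 24 h, 4 lower and 7 not called. That is 76.1% higher, against 12.9% of all tested genes, with a median difference of 0.90. These lists were drawn up with results of this series already known, so their direction is a description. PHT1;7, PAP23, PAP14 and PAP24 reached the 1 FPKM minimum through 24 h alone, which fixes their direction, and they are among the 35. In 43 of the 46 genes the groups did not overlap, against 60.8% of all tested genes.

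Among the regulators, SPX3 led. SPX3, a phosphate-responsive SPX protein that restrains PHR1, had 211 and 197 FPKM at 24 h, against 9.24 and 8.57 FPKM at 1.5 h, a difference of 4.37 ± 0.14 (adjusted p = 9.3e-08). The 24 h libraries stood 22.9-fold above the 1.5 h libraries in mean FPKM. SPX1, the related sensor, had 939 and 943 FPKM at 24 h, against 377 and 331 FPKM at 1.5 h, a difference of 1.41 ± 0.09 (adjusted p = 1.5e-06). SPX2 was higher by a smaller amount, 0.69 ± 0.06 (adjusted p = 1.3e-05). SPX4, whose protein is known to be degraded when phosphate is short, ran the other way at 6.13 and 6.23 FPKM at 24 h, against 8.22 and 9.35 FPKM at 1.5 h, a difference of -0.45 ± 0.11 (adjusted p = 0.012). The SPX4 call ended without replicate 1 at 24 h (-0.43) or replicate 2 at 1.5 h (-0.36). PHR1 itself had 23.0 and 28.0 FPKM at 24 h, against 29.8 and 28.2 FPKM at 1.5 h, and PHL1 had 14.2 and 15.1 FPKM at 24 h, against 12.9 and 14.5 FPKM at 1.5 h, and neither was called. Without replicate 2 at 24 h, PHR1 was called lower (-0.32).

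The RNAs of the miR399 pathway rose as well. IPS1, a noncoding RNA that sequesters miR399, had 1510.2 and 1608 FPKM at 24 h, against 469 and 391 FPKM at 1.5 h, a difference of 1.86 ± 0.10 (adjusted p = 7e-07). AT4, its relative, had 2614 and 3010.5 FPKM at 24 h, against 1862 and 1596 FPKM at 1.5 h, a difference of 0.70 ± 0.10 (adjusted p = 0.00044). PHO2, the ubiquitin-conjugating enzyme whose messenger miR399 cleaves, had 51.1 and 44.1 FPKM at 24 h, against 38.1 and 45.1 FPKM at 1.5 h, and its groups overlapped. The precursor of miR399d was the largest difference among genes that met the naming rule. It was listed at 70.8 and 185 FPKM at 24 h and at 0 in both 1.5 h libraries and in both 6 h libraries (adjusted p = 0.0041). It passed the minimum through 24 h alone, which fixes its direction. It spans 100 bases, so few reads give a high FPKM, and the call ended in 3 of 15 alternatives, one of them the fit without replicate 2 at 1.5 h, with adjusted p of 0.056 to 0.083. NLA, a ubiquitin ligase that acts on PHT1 transporters and is known as a target of another microRNA, miR827, was at 13.1 and 14.4 FPKM at 24 h, against 17.9 and 18.189 FPKM at 1.5 h, a difference of -0.37 ± 0.10 (adjusted p = 0.023). Its call ended in 3 of the 4 fits that left out 1 library: without replicate 1 at 24 h (-0.30), replicate 1 at 1.5 h (-0.38) or replicate 2 at 1.5 h (-0.36).

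The pairing that links these RNAs is visible in their sequences, from the RefSeq annotation of TAIR10.1. The mature miR399d lies at chr2:14442988-14443008, minus strand, with its seed (bases 2 to 8) in capitals. The sites in the other transcripts are the best matches found by a search of each transcript, written as DNA, with the bases that pair with miR399d in capitals. The sites of IPS1 (chr3:3051224-3051247, plus strand) and AT4 (chr5:895149-895172, plus strand) pair at 17 positions around an unpaired stretch of 3 extra bases, and the PHO2 site (chr2:14281884-14281904, minus strand) pairs at 19 positions with no extra bases.
miR399d: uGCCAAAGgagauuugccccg
IPS1: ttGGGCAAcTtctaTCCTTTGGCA
AT4: ttGGGCAAcTtcgaTCCTTTGGCA
PHO2: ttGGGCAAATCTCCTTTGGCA

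Of the 13 phosphate transport genes listed, 11 were members and 9 of these were higher, 1 was lower and 1 was not called. PHT1;3, a high-affinity phosphate importer of the plasma membrane, had 39.7 and 64.8 FPKM at 24 h, against 4.44 and 2.93 FPKM at 1.5 h, a difference of 3.48 ± 0.42 (adjusted p = 0.00037). The importers PHT1;8 and PHT1;9, which are known to act in phosphate movement within the root, had 12.2 and 12.5 FPKM at 24 h, against 2.54 and 3.39 FPKM at 1.5 h for PHT1;8 and 20.8 and 20.03 FPKM at 24 h, against 5.53 and 6.00 FPKM at 1.5 h for PHT1;9. PHT1;7 was near 0 at first and had 4.06 and 4.62 FPKM at 24 h, against 0.419 and 0.731 FPKM at 1.5 h. PHT1;4, one of the main uptake carriers, had 422 and 386 FPKM at 24 h, against 194 and 246 FPKM at 1.5 h, a smaller difference of 0.88 ± 0.13 (adjusted p = 0.00066).

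PHT1;1, the most abundant of these importers per length at 1.5 h, did not follow. It had 533 and 524 FPKM at 24 h, against 614 and 697 FPKM at 1.5 h, a difference of -0.31 ± 0.09 (adjusted p = 0.025), and the call ended without replicate 2 at 1.5 h (-0.21), replicate 1 at 24 h (-0.32) or replicate 2 at 24 h (-0.29). Its close copy PHT1;2 had 216 and 178 FPKM at 24 h, against 52.8 and 64.2 FPKM at 1.5 h, a difference of 1.74 ± 0.16 (adjusted p = 4.8e-05). For 41.5% of PHT1;1 and 44.8% of PHT1;2, 50-base windows of exon sequence occur elsewhere in the genome, so reads may be shared between these copies or lost, and both values are uncertain. In the xylem exporters, PHO1;H1 had 44.3 and 42.3 FPKM at 24 h, against 16.3 and 13.9 FPKM at 1.5 h, a difference of 1.47 ± 0.09 (adjusted p = 1.4e-06), and PHO1 had 143 and 158 FPKM at 24 h, against 112 and 130.3 FPKM at 1.5 h, a difference of 0.31 ± 0.08 (adjusted p = 0.016). Without replicate 1 at 1.5 h (0.20) or replicate 2 at 24 h (0.24) PHO1 was no longer called. PHF1, which helps PHT1 proteins leave the endoplasmic reticulum, differed by 0.38 ± 0.06 (adjusted p = 0.0015). AT1G63010, annotated as a transporter with an SPX domain, was not called at 69.6 and 68.8 FPKM at 24 h, against 66.6 and 62.8 FPKM at 1.5 h.

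Enzymes that exchange membrane phospholipids for other lipids were higher in 11 of 13 tested cases and lower in none. MGD3, a galactolipid synthase, had 170.0 and 163 FPKM at 24 h, against 13.6 and 14.992 FPKM at 1.5 h, a difference of 3.45 ± 0.21 (adjusted p = 2.9e-06). MGD2, the related synthase, had 31.5 and 29.7 FPKM at 24 h, against 5.22 and 4.54 FPKM at 1.5 h, a difference of 2.43 ± 0.13 (adjusted p = 5.6e-07). SQD2, which makes sulfolipid, had 419 and 398 FPKM at 24 h, against 69.6 and 73.8 FPKM at 1.5 h, a difference of 2.49 ± 0.10 (adjusted p = 1.9e-07), and SQD1, the step before it, differed by 1.55 ± 0.08 (adjusted p = 5.4e-07). These 4 genes separated the groups fully, with both 24 h libraries more than 2 times as high as any 1.5 h library.

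Enzymes of phospholipid breakdown rose as well. NPC4, a phospholipase C, had 145 and 134 FPKM at 24 h, against 28.2 and 32.4 FPKM at 1.5 h, a difference of 2.17 ± 0.08 (adjusted p = 1.4e-07). PLDP2, the phospholipase D also called PLDZ2, had 47.5 and 45.9 FPKM at 24 h, against 10.9 and 13.8 FPKM at 1.5 h, a difference of 1.85 ± 0.11 (adjusted p = 1e-06). Its relative PLDZ1 had 12.3 and 13.0 FPKM at 24 h, against 12.9 and 13.4 FPKM at 1.5 h and was not called. The glycerophosphodiesterases GDPD1 and GDPD2 differed by 1.46 ± 0.09 and 0.79 ± 0.11, DGD2, a galactolipid synthase, by 0.86 ± 0.10, and the phosphatidate phosphatase PAH1 by 0.74 ± 0.07. DGD1 differed by 0.44 ± 0.10 (adjusted p = 0.011), and its call ended without replicate 1 at 24 h (0.33) or replicate 2 at 1.5 h (0.41). PAH2 had 29.6 and 29.7 FPKM at 24 h, against 32.1 and 30.8 FPKM at 1.5 h and was not called.

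Enzymes that free or spare phosphate included the largest rise after SPX3 in these lists. PEPC1 (AT1G17710), a phosphatase of phosphocholine and phosphoethanolamine, had 421 and 392 FPKM at 24 h, against 25.5 and 22.8 FPKM at 1.5 h, a difference of 4.02 ± 0.16 (adjusted p = 1.9e-07). PS2, a phosphate starvation pyrophosphatase, had 709 and 647 FPKM at 24 h, against 72.7 and 71.1 FPKM at 1.5 h, a difference of 3.22 ± 0.11 (adjusted p = 1e-07). PPCK1, a kinase of phosphoenolpyruvate carboxylase, had 224 and 217 FPKM at 24 h, against 73.2 and 85.3 FPKM at 1.5 h, a difference of 1.47 ± 0.07 (adjusted p = 4.5e-07), and PPCK2 differed by 0.65 ± 0.10 (adjusted p = 0.00076). All 4 were higher in both 24 h libraries than in any earlier mock library.

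Among purple acid phosphatases, secreted or vacuolar enzymes that release phosphate from organic compounds, 6 of 7 tested were higher, 3 of which (PAP23, PAP14 and PAP24) passed the minimum through 24 h alone. PAP12 had 162 and 149.7 FPKM at 24 h, against 73.5 and 72.4 FPKM at 1.5 h, a difference of 1.08 ± 0.06 (adjusted p = 9.8e-07). PAP17 had 346 and 344 FPKM at 24 h, against 211 and 201 FPKM at 1.5 h, a difference of 0.74 ± 0.08 (adjusted p = 6.4e-05). PAP10 had 72.8 and 66.2 FPKM at 24 h, against 38.4 and 37.7 FPKM at 1.5 h. PAP23, PAP14 and PAP24 stayed under 4 FPKM in every one of the 4 libraries, with PAP23 at 3.71 and 2.87 FPKM at 24 h, against 0.0645 and 0.321 FPKM at 1.5 h and PAP14 at 2.89 and 2.64 FPKM at 24 h, against 0.228 and 0.171 FPKM at 1.5 h. They differed by 1.85 for PAP23, 1.65 for PAP14 and 0.91 for PAP24. The calls of PAP23 (2.01) and PAP24 (0.89) ended without replicate 2 at 1.5 h, and that of PAP24 also without replicate 1 at 1.5 h (0.94). PAP26, the main intracellular acid phosphatase of leaves and known to be little controlled by transcription, had 157 and 158 FPKM at 24 h, against 178 and 171 FPKM at 1.5 h and was not called. PAP5 and PAP25 were not members.

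RNS1, a secreted ribonuclease known from phosphate starvation and wounding, went against the list. It had 15.2 and 8.24 FPKM at 24 h, against 107 and 68.7 FPKM at 1.5 h, a difference of -2.82 ± 0.27 (adjusted p = 6.8e-05), and 6 h libraries had 4.28 and 3.04 FPKM. The level was thus highest 1.5 h after the move to liquid.

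**Figure D2:**
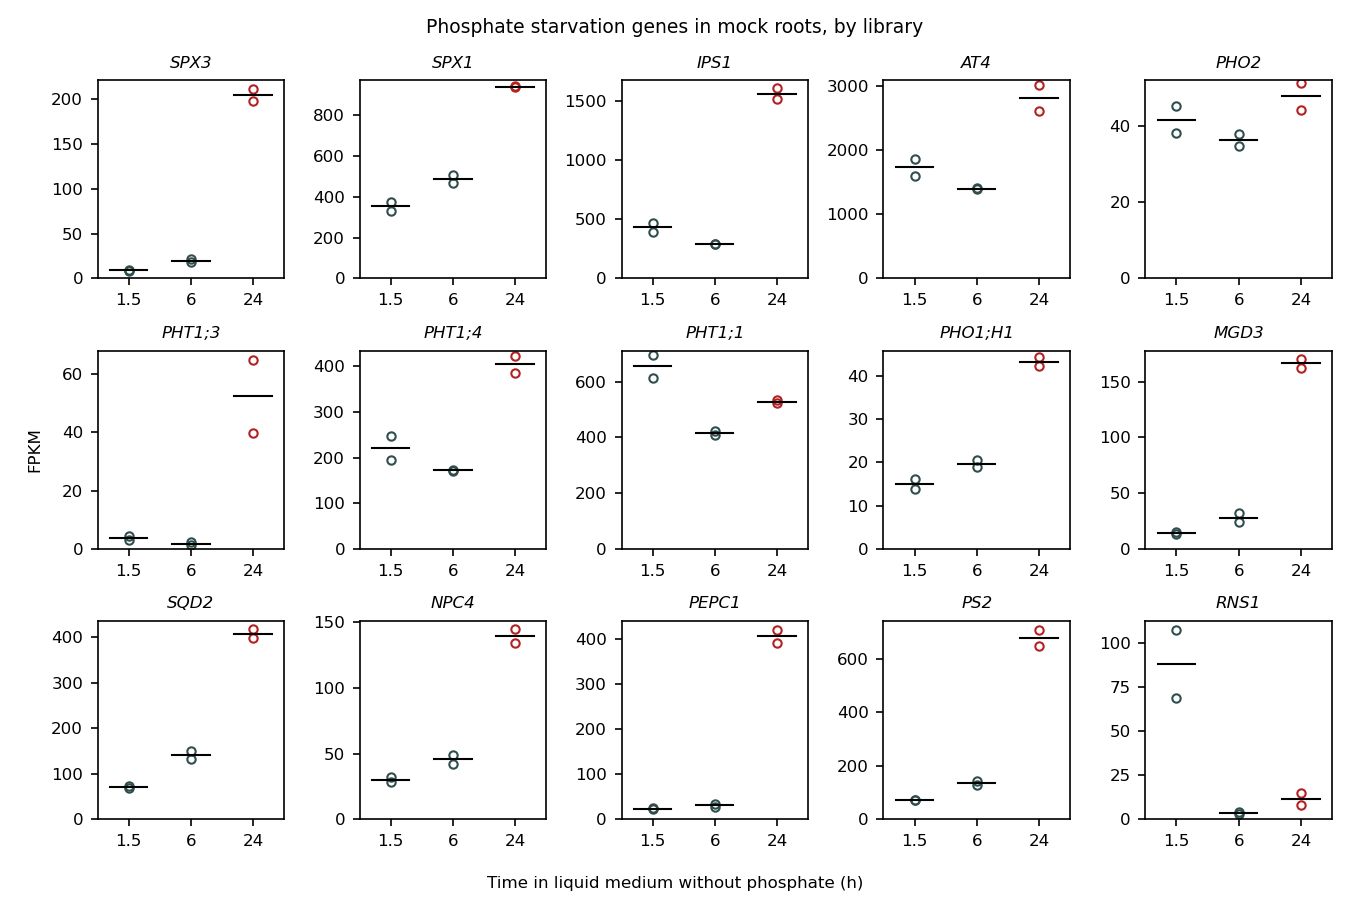
FPKM of 15 phosphate starvation genes in each mock library (circles; 24 h in red) at 1.5, 6 and 24 h, with horizontal bars at the mean of the 2 libraries and each vertical axis starting at 0. SPX3, MGD3, PEPC1 and PS2 were far higher at 24 h than at 1.5 and 6 h, PHO2 overlapped between 24 h and 1.5 h, and RNS1 was highest at 1.5 h.

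Most of this rise came after 6 h of liquid culture. A share of the change was computed as the 6 h minus 1.5 h difference over the 24 h minus 1.5 h difference, so that 0 is the 1.5 h level and 1 the 24 h level. Both differences use the same 1.5 h libraries, and the share is a description. Of the 35 higher phosphate genes, 34 had a share under 0.5 and 16 had a share of 0 or less, meaning a 6 h level at or under that of 1.5 h. Over all called genes of a list, higher or lower, the median share was -0.19 in transport and 0.23 in signalling. It was 0.26 in lipid remodelling and 0.09 in recycling enzymes. IPS1 had 293 and 290.3 FPKM at 6 h and PHT1;4 had 174 and 172 FPKM at 6 h, both under their 1.5 h libraries. GDPD2 was the exception, with 161 and 166 FPKM at 6 h, above both other times.

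P1BS, the site that PHR1 binds, was sought as GNATATNC on both strands in the 300 bases before each annotated gene start of TAIR10.1. The motif is its own reverse complement. It was found before 14 of the 35 higher phosphate genes (40%), against 1250 of 18943 tested genes with such a window (6.6%). It was present before 10.2% of the 2446 genes called higher, 5.7% of the 2286 called lower and 6.1% of the 14211 not called, and before 14.1% of those higher by at least 2-fold. A match is a run of letters and was not tested as a binding site, and 300 bases do not cover every promoter. The windows of the 6 higher phosphate genes with a match and the largest differences are shown from the first to the last match with 20 bases on either side where the window allows, P1BS in capitals, together with that of miR399d. SPX3 holds 2 matches and the others 1 each. The start used for miR399d is that of its annotated hairpin and not of the primary transcript.
SPX3 (chr2:18606177-18606347, plus strand): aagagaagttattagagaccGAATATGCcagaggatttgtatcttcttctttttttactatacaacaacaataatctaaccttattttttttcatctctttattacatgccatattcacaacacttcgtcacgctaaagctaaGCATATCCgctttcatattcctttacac
PS2 (chr1:27466538-27466585, minus strand): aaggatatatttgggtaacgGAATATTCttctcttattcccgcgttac
MGD2 (chr5:6896429-6896462, plus strand): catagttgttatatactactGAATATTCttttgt
NPC4 (chr3:845288-845335, minus strand): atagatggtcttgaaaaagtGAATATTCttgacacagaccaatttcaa
PAP23 (chr4:7958988-7959035, minus strand): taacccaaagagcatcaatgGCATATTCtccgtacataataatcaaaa
PLDP2 (chr3:1634994-1635041, plus strand): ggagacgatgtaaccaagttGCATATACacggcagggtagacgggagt
MIR399d (chr2:14443219-14443266, minus strand): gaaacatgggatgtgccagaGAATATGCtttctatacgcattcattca

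The same search was made for other short motifs. The abscisic acid response core ACGTGTC was found before 7.2% of genes lower by at least 2-fold, 4.3% of those higher by at least 2-fold and 4.5% of all tested genes. The evening element AAAATATCT, bound by clock factors, was found before 3.6% of the same lower genes, 3.9% of the higher genes and 2.8% of all. It was found before 6 of the 24 clock genes. The abscisic acid response core was found before 8 of these 24 and before 2 of the 7 abscisic acid genes. The W box form TTGACC, bound by WRKY factors, was found before 11.9% of the lower genes, 16.4% of the higher genes and 14.1% of all.

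Strand is not stated for the counting, so genes that overlap a neighbour on the other strand may hold reads of that neighbour. In the phosphate lists this applies to PHR1, NLA, PLDP2, GDPD1, PPCK1, PAP10, PAP17 and PAP24. Among genes named below it applies to LPR1, STOP1, ABCI17, BHLH38, AT3G13610, FER1, NRT1.5, APR1, AT3G06019, CASP5, ESB1, AT4G33420, ETC1, GL2, CDKB2;2, EBF2, ABI1, RAB18, F3H, TT4, GSTU10, AT2G15029, JAZ10, ADH1, WRKY33, HSP101 and the clock genes ELF3, LNK1, LNK2, FKF1, LUX, BOA, RVE1 and COL2. It also applies to CASP1 above. AT5G09711, ERD9, GL2 and GSTU10 overlap a neighbour on their own strand.

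Local sensing of phosphate by the root tip is a pathway that runs through LPR1 and PDR2 and through STOP1 and ALMT1. Of 6 tested genes of this list 1 was higher, 1 lower and 4 not called. That is 33.3% called, against 25.0% of all tested genes. LPR1, a ferroxidase, had 8.28 and 7.50 FPKM at 24 h, against 16.1 and 13.1 FPKM at 1.5 h, a difference of -0.80 ± 0.10 (adjusted p = 0.00021). PDR2 had 34.4 and 30.7 FPKM at 24 h, against 30.8 and 33.7 FPKM at 1.5 h, and STOP1 had 69.7 and 82.9 FPKM at 24 h, against 83.0 and 93.5 FPKM at 1.5 h, and neither was called. ALMT1, a malate channel, was not a member. ABCI17, also known as STAR1, was higher by 0.43 ± 0.11 (adjusted p = 0.013), and this call ended without replicate 2 at 1.5 h (0.28) or replicate 1 at 24 h (0.41).

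Iron uptake genes formed another group that rose, with 11 of 19 tested genes higher, 1 lower and 7 not called. That is 63.2% called, against 25.0% of all tested genes, with a median difference of 0.59. Of the 19 genes, 1 passed the minimum through 1 of the groups only, which fixes its direction. IRT1, the main iron importer of root epidermal cells, had 84.4 and 90.5 FPKM at 24 h, against 14.3 and 18.7 FPKM at 1.5 h, a difference of 2.35 ± 0.22 (adjusted p = 4.8e-05). FRO2, the ferric reductase that supplies it, had 40.2 and 45.3 FPKM at 24 h, against 5.42 and 7.24 FPKM at 1.5 h, a difference of 2.58 ± 0.24 (adjusted p = 4.8e-05). In both genes the 6 h libraries were the lowest of the mock series, with 1.37 and 0.777 FPKM for IRT1 and 1.24 and 1.05 FPKM for FRO2. BHLH38, a factor that switches on these genes, had 21.2 and 19.0 FPKM at 24 h, against 4.81 and 4.68 FPKM at 1.5 h, a difference of 1.88 ± 0.25 (adjusted p = 0.00027). AT1G47395, a small uncharacterized protein, had 44.5 and 28.5 FPKM at 24 h, against 4.86 and 5.72 FPKM at 1.5 h.

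FRU, the factor better known as FIT that is required for IRT1 and FRO2 expression, ran against the list at 24.1 and 21.1 FPKM at 24 h, against 42.5 and 50.9 FPKM at 1.5 h, a difference of -1.01 ± 0.12 (adjusted p = 0.00016). Its 6 h libraries had 19.5 and 19.4 FPKM. AT3G13610, annotated with the synonym F6'H1 for a step of coumarin synthesis, had 139.7 and 182 FPKM at 24 h, against 66.1 and 73.2 FPKM at 1.5 h, a difference of 1.19 ± 0.11 (adjusted p = 1.7e-05). It was the called gene among 4 tested coumarin genes, 25.0% as among all tested genes. Ferritins, the iron stores, were not called: FER1 had 79.2 and 79.1 FPKM at 24 h, against 72.3 and 68.0 FPKM at 1.5 h. Of 7 iron storage genes, the transporter VTL5 was called, 14.3% against 25.0% of all tested genes. VTL5 differed by -0.74 ± 0.18 (adjusted p = 0.012), and this call ended without replicate 2 at 24 h (-0.65) or replicate 2 at 1.5 h (-0.73).

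Other nutrients split gene by gene. LSU2, a small protein of low sulfur response, had 142 and 130.3 FPKM at 24 h, against 31.4 and 35.8 FPKM at 1.5 h, a difference of 1.99 ± 0.09 (adjusted p = 2.8e-07). SULTR1;2, the main root sulfate importer, had 37.7 and 37.5 FPKM at 24 h, against 253 and 207 FPKM at 1.5 h, a difference of -2.57 ± 0.12 (adjusted p = 4.5e-07), with 43.0 and 42.8 FPKM already at 6 h. APR1, which reduces activated sulfate, had 138 and 136 FPKM at 24 h, against 67.9 and 70.3 FPKM at 1.5 h, a difference of 0.98 ± 0.09 (adjusted p = 1.8e-05). In the sulfate list 3 of 17 genes were higher and 2 lower, 29.4% called, and of 9 zinc transport genes 1 was higher and 2 were lower, 33.3% called, both near the 25.0% of all tested genes. Without replicate 1 at 24 h or replicate 2 at 1.5 h, 2 zinc genes were higher, and 2 sulfate genes were higher without replicate 1 at either time or replicate 2 at 1.5 h. ZIP9, a zinc importer known to rise when zinc is short, had 3.41 and 3.57 FPKM at 24 h, against 13.6 and 14.3 FPKM at 1.5 h, a difference of -1.73 ± 0.12 (adjusted p = 2.8e-06).

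Of 17 nitrogen genes, 5 were higher and 2 lower, with 4 lower without replicate 2 at 24 h and 1 lower without replicate 1 at either time. With all libraries 41.2% of the nitrogen genes were called, against 25.0% of all tested genes. NRT2.4, a nitrate importer among the 5 higher, passed the minimum through 24 h alone. NRT1.5, which loads nitrate into the xylem, had 73.9 and 72.3 FPKM at 24 h, against 35.4 and 37.0 FPKM at 1.5 h, a difference of 0.99 ± 0.12 (adjusted p = 0.0002). The ammonium importer AMT1;2 had 64.3 and 73.3 FPKM at 24 h, against 103 and 104 FPKM at 1.5 h, a difference of -0.58 ± 0.06 (adjusted p = 8.2e-05). CIPK23, a kinase that controls nitrate and potassium channels, had 21.9 and 20.2 FPKM at 24 h, against 38.9 and 40.2 FPKM at 1.5 h, a difference of -0.88 ± 0.12 (adjusted p = 0.00028). NIP1;1, an aquaglyceroporin known to admit arsenite, had 92.8 and 82.1 FPKM at 24 h, against 30.3 and 30.6 FPKM at 1.5 h, a difference of 1.49 ± 0.10 (adjusted p = 1.9e-06). PCS1, the phytochelatin synthase, had 56.2 and 77.0 FPKM at 24 h, against 35.1 and 34.4 FPKM at 1.5 h, a difference of 0.90 ± 0.13 (adjusted p = 0.00059). Of 10 genes of arsenic handling 3 were higher and 3 lower, in roots that had met no arsenate. That is 60.0% called, against 25.0% of all tested genes.

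Genes of salicylate defence were higher in 6 of 6 tested cases, with a median of 1.57, while PR1, PR2 and PR5, the classic markers of this hormone, were not members. Without replicate 2 at 1.5 h or replicate 1 at 24 h, 4 of the 6 were called. WRKY54 had 68.0 and 63.0 FPKM at 24 h, against 4.27 and 5.72 FPKM at 1.5 h, a difference of 3.48 ± 0.16 (adjusted p = 3.5e-07). WRKY70, its close relative and a factor induced by salicylate, had 17.9 and 18.8 FPKM at 24 h, against 3.33 and 2.24 FPKM at 1.5 h, a difference of 2.37 ± 0.23 (adjusted p = 3.3e-05). NIMIN1, a partner of the salicylate receptor NPR1, had 18.3 and 12.7 FPKM at 24 h, against 0.449 and 0.224 FPKM at 1.5 h, a difference of 3.62 ± 0.57 (adjusted p = 0.00094). It passed the minimum through 24 h alone, which fixes its direction. ICS1, the synthase that starts salicylate production, was also among the 6 called higher. Its level was low, at 5.10 and 3.53 FPKM at 24 h, against 2.33 and 1.87 FPKM at 1.5 h.

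WRKY factors as a family had 18 of 56 tested genes higher and 6 lower, with a median of 0.15. That is 42.9% called, against 25.0% of all tested genes. The family shares WRKY54 and WRKY70 with the salicylate list. Of the 56 genes, 5 passed the minimum through 24 h alone, and 4 of these, WRKY62, WRKY67, WRKY46 and WRKY74, are among the 18, so the minimum fixed their direction. WRKY62 had 22.9 and 16.0 FPKM at 24 h, against 0.294 and 0.0976 FPKM at 1.5 h, a difference of 4.08 ± 0.62 (adjusted p = 0.00076). WRKY59 had 21.5 and 19.4 FPKM at 24 h, against 0.373 and 1.3024 FPKM at 1.5 h, and WRKY38 had 24.5 and 24.8 FPKM at 24 h, against 2.33 and 3.06 FPKM at 1.5 h. Each separated the groups by several fold. The count of higher WRKY genes fell to 12 without replicate 1 at 1.5 h and to 11 without replicate 2 at 1.5 h, while 10 were lower without replicate 2 at 24 h, against 3 without replicate 1 at 24 h.

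Several of the largest rises lay outside the lists. Of those below, ARD3, AT1G65484, AT3G06019, AT5G09711 and SNOR111 passed the minimum through 24 h alone, which fixes their direction. ARD3, an acireductone dioxygenase of the methionine salvage cycle, had 32.6 and 49.6 FPKM at 24 h, against 0.448 and 0.223 FPKM at 1.5 h, a difference of 4.95 ± 0.75 (adjusted p = 0.00074). AT1G19960, annotated as a transcription factor, had 126 and 99.7 FPKM at 24 h, against 3.42 and 4.77 FPKM at 1.5 h, a difference of 4.49 ± 0.38 (adjusted p = 1.3e-05). AT1G65484, an uncharacterized protein, had 18.239 and 34.7 FPKM at 24 h, against 0.175 and 0.174 FPKM at 1.5 h, a difference of 4.47 ± 1.36 (adjusted p = 0.039), and its call ended without replicate 1 or replicate 2 at 1.5 h (4.47 in each). AT3G06019, AT5G09711 and the small nucleolar RNA SNOR111 were listed at 0 in both 1.5 h libraries and at 66.9 and 46.7, 45.4 and 19.0, and 23.1 and 36.2 FPKM at 24 h. These 3 genes span 111, 138 and 130 bases, so a few reads give a high FPKM. Without replicate 2 at 1.5 h they were no longer called, with adjusted p of 0.057 to 0.099, and SNOR111 was not called without replicate 1 at 1.5 h (adjusted p = 0.084).

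Suberin genes, which build the lipid barrier of the endodermis, were higher in 11 of 14 cases and lower in none, with a median of 0.55. That is 78.6% higher, against 12.9% of all tested genes. In the fit without voom weights, 6 of the 14 were higher, with a median of 0.55. FAR5, a fatty acyl reductase, had 39.0 and 38.0 FPKM at 24 h, against 16.8 and 18.6 FPKM at 1.5 h, a difference of 1.08 ± 0.15 (adjusted p = 0.00038). ABCG6, an exporter of suberin parts, had 50.9 and 51.2 FPKM at 24 h, against 23.7 and 28.0 FPKM at 1.5 h, a difference of 0.96 ± 0.14 (adjusted p = 0.00051). CYP86A1, a fatty acid hydroxylase, had 143 and 139.8 FPKM at 24 h, against 94.1 and 96.9 FPKM at 1.5 h. The Casparian strip genes of the same cell layer had 1 of 9 higher and 1 lower. That is 22.2% called, near the 25.0% of all tested genes. CASP5 was higher, with 10.5 and 12.6 FPKM at 24 h, against 4.79 and 5.13 FPKM at 1.5 h. ESB1 was lower, with 136 and 159 FPKM at 24 h, against 177 and 222 FPKM at 1.5 h. The ESB1 call ended without replicate 1 at 24 h (-0.32) or replicate 2 at 1.5 h (-0.27).

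Cell wall loosening and the epidermis gave mixed results. Of tested expansins 45.5% were called, of xyloglucan endotransglucosylases 43.5% and of class III peroxidases 56.4%, against 25.0% of all tested genes. Among 22 expansins 8 were higher and 2 lower, and EXPA4 had 188 and 175 FPKM at 24 h, against 54.5 and 67.1 FPKM at 1.5 h, a difference of 1.57 ± 0.09 (adjusted p = 8.7e-07). Among 23 xyloglucan endotransglucosylases 8 were higher and 2 lower, and XTH19 had 73.8 and 96.6 FPKM at 24 h, against 29.2 and 23.59 FPKM at 1.5 h, a difference of 1.65 ± 0.13 (adjusted p = 9e-06), while XTH32 had 16.1 and 21.4 FPKM at 24 h, against 47.7 and 35.8 FPKM at 1.5 h. The count of higher XTH genes was 4 without replicate 1 at 1.5 h and 5 without replicate 2 at 24 h. Of 55 class III peroxidases 16 were higher and 15 lower, with 8 lower without replicate 2 at 1.5 h and 9 without replicate 1 at 24 h. Prx37 had 684 and 729 FPKM at 24 h, against 245 and 289.7 FPKM at 1.5 h, a difference of 1.40 ± 0.15 (adjusted p = 0.00013), and AT4G33420 had 21.6 and 24.5 FPKM at 24 h, against 59.5 and 55.3 FPKM at 1.5 h.

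GL2, the homeodomain factor that keeps epidermal cells from forming hairs, had 5.85 and 6.45 FPKM at 24 h, against 5.60 and 6.61 FPKM at 1.5 h, and its groups overlapped. ANL2, a related factor, had 7.14 and 7.03 FPKM at 24 h, against 10.4 and 11.5 FPKM at 1.5 h, a difference of -0.56 ± 0.09 (adjusted p = 0.00086). Of 11 epidermal patterning genes 3 were higher and 1 lower, 36.4% called against 25.0% of all tested genes. ETC1 and ETC3, small MYB proteins that favour hair fate, had 11.8 and 9.24 FPKM at 24 h, against 3.12 and 3.52 FPKM at 1.5 h for ETC1 and 38.2 and 32.1 FPKM at 24 h, against 10.1 and 15.7 FPKM at 1.5 h for ETC3, with differences of 1.41 ± 0.26 (adjusted p = 0.0026) and 1.40 ± 0.21 (adjusted p = 0.0007). SCM, the receptor kinase that places hair cells, differed by 0.50 ± 0.09 (adjusted p = 0.0019).

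Root hair growth genes had 1 of 14 higher, 5 lower and 8 not called. That is 42.9% called, against 25.0% of all tested genes. RSL2, a bHLH factor of hair growth, had 27.9 and 29.8 FPKM at 24 h, against 15.6 and 14.3 FPKM at 1.5 h, a difference of 0.91 ± 0.09 (adjusted p = 4.9e-05). RSL4, which sets hair length, had 18.3 and 18.8 FPKM at 24 h, against 27.8 and 31.2 FPKM at 1.5 h, a difference of -0.64 ± 0.14 (adjusted p = 0.0063), and it was not called without replicate 2 at 1.5 h (-0.56). The number of lower genes was then 1, and it was 3 without replicate 1 at 24 h. The wall genes PRP3 and LRX1 had 331 and 334 FPKM at 24 h, against 283 and 358 FPKM at 1.5 h for PRP3 and 116 and 114 FPKM at 24 h, against 100 and 113 FPKM at 1.5 h for LRX1, and neither was called. Summed over the list, root hair genes had 1141 and 1171 FPKM at 24 h, against 1176 and 1385 FPKM at 1.5 h.

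WOX5, which marks the quiescent centre of the root tip, had 1.96 and 1.69 FPKM at 24 h, against 11.6 and 7.87 FPKM at 1.5 h, a difference of -1.90 ± 0.32 (adjusted p = 0.0015), with 4.51 and 3.23 FPKM at 6 h. In the meristem and root cap list 2 of 8 genes were lower, WOX5 and SCR, and none was higher. That is 25.0% called, the same share as of all tested genes. SCR, expressed in the endodermis and quiescent centre, was lower by 0.35, a call that ended without replicate 1 at 24 h (-0.32), replicate 2 at 24 h (-0.37) or replicate 2 at 1.5 h (-0.24). PLT1 and PLT2, which maintain the stem cells, were under 3 FPKM in each of the 4 libraries and were not called. CDKB2;2, a mitotic kinase, had 23.4 and 19.9 FPKM at 24 h, against 10.3 and 8.58 FPKM at 1.5 h, a difference of 1.12 ± 0.12 (adjusted p = 6.7e-05). Counts in the division and replication lists depended on single libraries. With all libraries 3 of 10 division genes and 2 of 10 replication genes were called higher. Without replicate 2 at 24 h these counts were 7 and 8, and without replicate 1 at 24 h they were 1 and 1. Without replicate 1 at 1.5 h they were 2 and 1, and without replicate 2 at 1.5 h they were 1 and 2.

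Among hormone lists, 60% of ethylene genes were called, against 25.0% of all tested genes. ACO4, an enzyme of the last step of ethylene synthesis, had 94.8 and 110.5 FPKM at 24 h, against 23.5 and 31.2 FPKM at 1.5 h, a difference of 1.88 ± 0.14 (adjusted p = 5.1e-06). The ethylene receptor gene ERS2 had 8.06 and 6.70 FPKM at 24 h, against 10.4 and 10.3 FPKM at 1.5 h. EBF2, an F-box gene that ethylene is known to induce, had 109.5 and 101 FPKM at 24 h, against 143 and 142 FPKM at 1.5 h. They were lower by 0.45 for ERS2 and 0.43 for EBF2, and ERS2 was not called without replicate 2 at 24 h (-0.33). Of 10 ethylene genes 4 were higher and 2 lower, with 2 higher when either 1.5 h library was left out. PIN4, an auxin exporter, had 9.52 and 8.64 FPKM at 24 h, against 17.027 and 15.4 FPKM at 1.5 h, a difference of -0.77 ± 0.08 (adjusted p = 3.9e-05), and the auxin importer LAX2 had 16.4 and 12.4 FPKM at 24 h, against 8.46 and 8.71 FPKM at 1.5 h. IPT5, a cytokinin synthesis enzyme, had 8.77 and 7.16 FPKM at 24 h, against 13.9 and 14.9 FPKM at 1.5 h, a difference of -0.79 ± 0.10 (adjusted p = 0.0002). Of 15 auxin genes 2 were higher and 3 lower, and of 12 cytokinin genes 1 was higher and 3 were lower, 33.3% called in each list against 25.0% of all tested genes. Without replicate 1 at 1.5 h, 1 auxin gene was higher and 1 cytokinin gene lower, and leaving out other libraries gave 2 to 3 higher auxin and 2 to 4 lower cytokinin genes. ARR16, a response regulator among the 3 lower, passed the minimum through 1.5 h alone. LBO1, a late enzyme of strigolactone synthesis, had 27.9 and 29.2 FPKM at 24 h, against 13.0 and 12.4 FPKM at 1.5 h, a difference of 1.11 ± 0.07 (adjusted p = 2.5e-06).

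**Figure D3:**
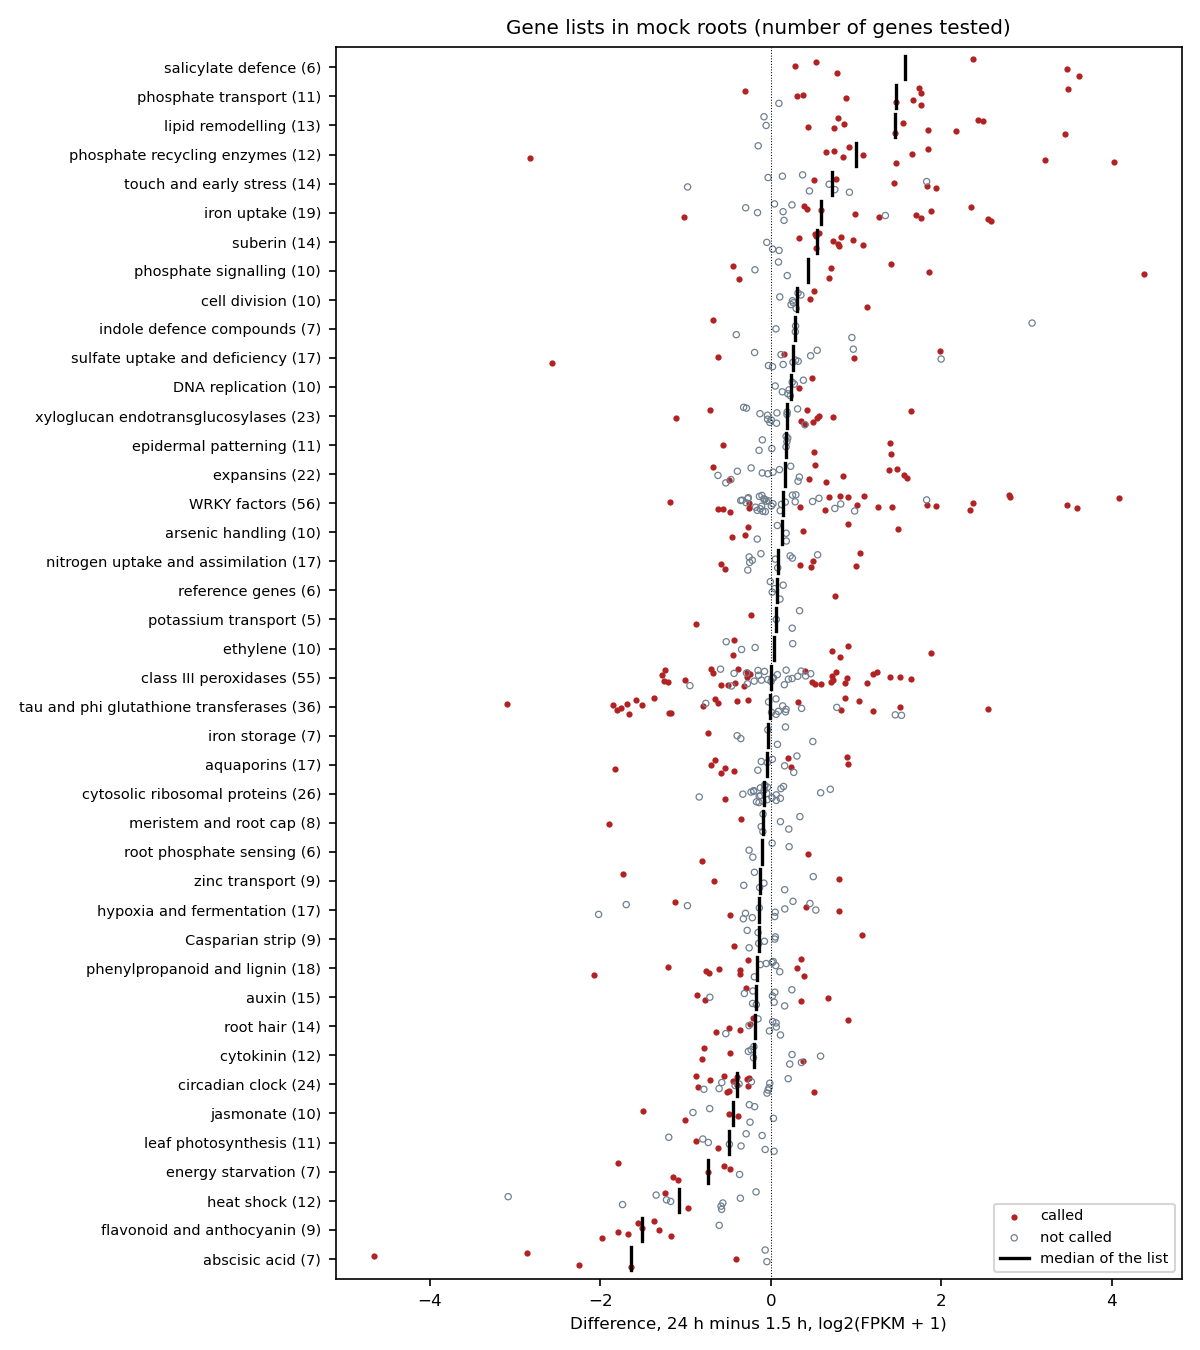
Differences, 24 h minus 1.5 h, of the tested genes in each list with at least 5 tested genes, as log2(FPKM + 1), with called genes in red, others as open grey circles and the list median as a black bar. Lists are sorted by median, from salicylate defence at 1.57 down to abscisic acid at -1.64; several lists near 0 hold called genes on both sides.

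Among the lists of at least 5 tested genes, that of abscisic acid, dehydration and cold had the lowest median, -1.64, with 5 of 7 tested genes lower and none higher. That is 71.4% lower, against 12.1% of all tested genes. KIN1, a small protein induced by cold and abscisic acid, had 23.8 and 27.7 FPKM at 24 h, against 604 and 742 FPKM at 1.5 h, a difference of -4.65 ± 0.22 (adjusted p = 8e-07), and 272 and 249.7 FPKM at 6 h. RD29A, a standard marker of these stresses, had 51.3 and 49.2 FPKM at 24 h, against 444 and 312 FPKM at 1.5 h, a difference of -2.86 ± 0.19 (adjusted p = 9.3e-06). The dehydrins ERD10 and COR47 had 201 and 186 FPKM at 24 h, against 1033 and 831 FPKM at 1.5 h for ERD10 and 1020.4 and 1132 FPKM at 24 h, against 3610.3 and 3112 FPKM at 1.5 h for COR47. RD29A, ERD10 and COR47 had nearly reached their 24 h level by 6 h, with 62.6 and 61.3 FPKM, 224 and 209 FPKM and 1285 and 1253 FPKM. LTI30, another dehydrin that was outside the list, had 121 and 135 FPKM at 24 h, against 1346 and 957 FPKM at 1.5 h, a difference of -3.14 ± 0.16 (adjusted p = 9.8e-07). The phosphatases ABI2 and PP2CA, which act in abscisic acid signalling, were not called, and ABI1 was lower by 0.41. RD29B, NCED3, HAI1 and HAI2 were not members, and RAB18 was a member with too few reads to be tested.

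Flavonoid genes were lower in 8 of 9 tested cases (88.9%, against 12.1% of all tested genes) with a median of -1.52. TT5, a chalcone isomerase, had 126 and 111 FPKM at 24 h, against 406 and 415 FPKM at 1.5 h, a difference of -1.79 ± 0.17 (adjusted p = 4.9e-05). F3H, a flavanone hydroxylase, had 225 and 190.2 FPKM at 24 h, against 652 and 671 FPKM at 1.5 h, a difference of -1.67 ± 0.14 (adjusted p = 1.8e-05). UGT78D1, which adds rhamnose to flavonols, had 10.004 and 6.54 FPKM at 24 h, against 38.2 and 32.4 FPKM at 1.5 h, a difference of -1.99 ± 0.18 (adjusted p = 3.1e-05). TT4, chalcone synthase, had 1449 and 1364 FPKM at 24 h, against 1886 and 2426 FPKM at 1.5 h. Its groups did not overlap, and it was not called (adjusted p = 0.059). Genes of the anthocyanin branch, DFR, LDOX and MYB75, were not members.

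Enzymes upstream of flavonoids and lignin were lower in 8 of 18 cases and higher in 3, with 5 lower without replicate 1 at 24 h and 1 higher without replicate 2 at either time. With all libraries 61.1% of the 18 were called, against 25.0% of all tested genes. PAL2, the entry enzyme, had 148 and 152 FPKM at 24 h, against 352 and 345 FPKM at 1.5 h, a difference of -1.21 ± 0.12 (adjusted p = 3.4e-05). 4CL3, the ligase isoform that serves flavonoids, had 30.8 and 26.4 FPKM at 24 h, against 132 and 116 FPKM at 1.5 h, a difference of -2.08 ± 0.11 (adjusted p = 5.3e-07). The lignin oxidase LAC4 had 31.8 and 31.7 FPKM at 24 h, against 28.1 and 30.8 FPKM at 1.5 h and was not called.

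Tau and phi glutathione transferases, which conjugate toxic compounds and are induced by stress, had 16 of 36 genes lower and 7 higher, with a median of -0.01. That is 63.9% called, against 25.0% of all tested genes. GSTU5 had 26.4 and 34.5 FPKM at 24 h, against 315 and 223 FPKM at 1.5 h, a difference of -3.09 ± 0.19 (adjusted p = 3.9e-06). ERD9, a glutathione transferase also called GSTU17, had 20.5 and 14.8 FPKM at 24 h, against 174 and 133 FPKM at 1.5 h, a difference of -3.05 ± 0.21 (adjusted p = 7e-06). GSTU10 was a counterexample with 33.9 and 66.4 FPKM at 24 h, against 8.72 and 6.10 FPKM at 1.5 h, a difference of 2.54 ± 0.40 (adjusted p = 0.0016).

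Other large falls lay outside the lists. Of those below, AT4G25433 and AT2G15029 passed the minimum through 1.5 h alone, which fixes their direction. CYP94B1, a cytochrome P450, had 2.78 and 2.15 FPKM at 24 h, against 50.8 and 47.1 FPKM at 1.5 h, a difference of -3.85 ± 0.24 (adjusted p = 1.4e-06), with 17.422 and 21.7 FPKM at 6 h. AT1G62975, a bHLH protein, had 16.7 and 13.3 FPKM at 24 h, against 271 and 187 FPKM at 1.5 h, a difference of -3.83 ± 0.30 (adjusted p = 4.2e-05). AT4G22610, a lipid transfer protein, had 6.42 and 5.33 FPKM at 24 h, against 89.9 and 65.2 FPKM at 1.5 h, and AT4G25433, a LysM domain protein, had 0.134 and 0.141 FPKM at 24 h, against 14.2 and 10.4 FPKM at 1.5 h. AT4G18280, a glycine-rich cell wall protein, had 3.54 and 9.39 FPKM at 24 h, against 63.2 and 48.1 FPKM at 1.5 h. AT2G15029, of 102 bases, was listed at 0 in both 24 h libraries and at 38.8 and 38.7 FPKM at 1.5 h, and was not called without replicate 1 or replicate 2 at 24 h, where its adjusted p was 0.11.

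Energy starvation genes were lower in 6 of 7 tested cases (85.7%, against 12.1% of all tested genes) with a median of -0.74. The factor BZIP1 had 1.97 and 2.53 FPKM at 24 h, against 12.046 and 8.57 FPKM at 1.5 h, a difference of -1.79 ± 0.30 (adjusted p = 0.0013). IVD, which degrades leucine, had 7.11 and 7.47 FPKM at 24 h, against 17.7 and 16.991 FPKM at 1.5 h, a difference of -1.15 ± 0.10 (adjusted p = 1.4e-05). The count was 3 without replicate 1 at either time. Of 10 jasmonate genes 4 were lower, among them JAZ10, a repressor induced by the hormone, with 1.16 and 1.46 FPKM at 24 h, against 6.16 and 4.92 FPKM at 1.5 h, and JAZ1 with 64.7 and 80.9 FPKM at 24 h, against 173 and 124 FPKM at 1.5 h.

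**Figure D4:**
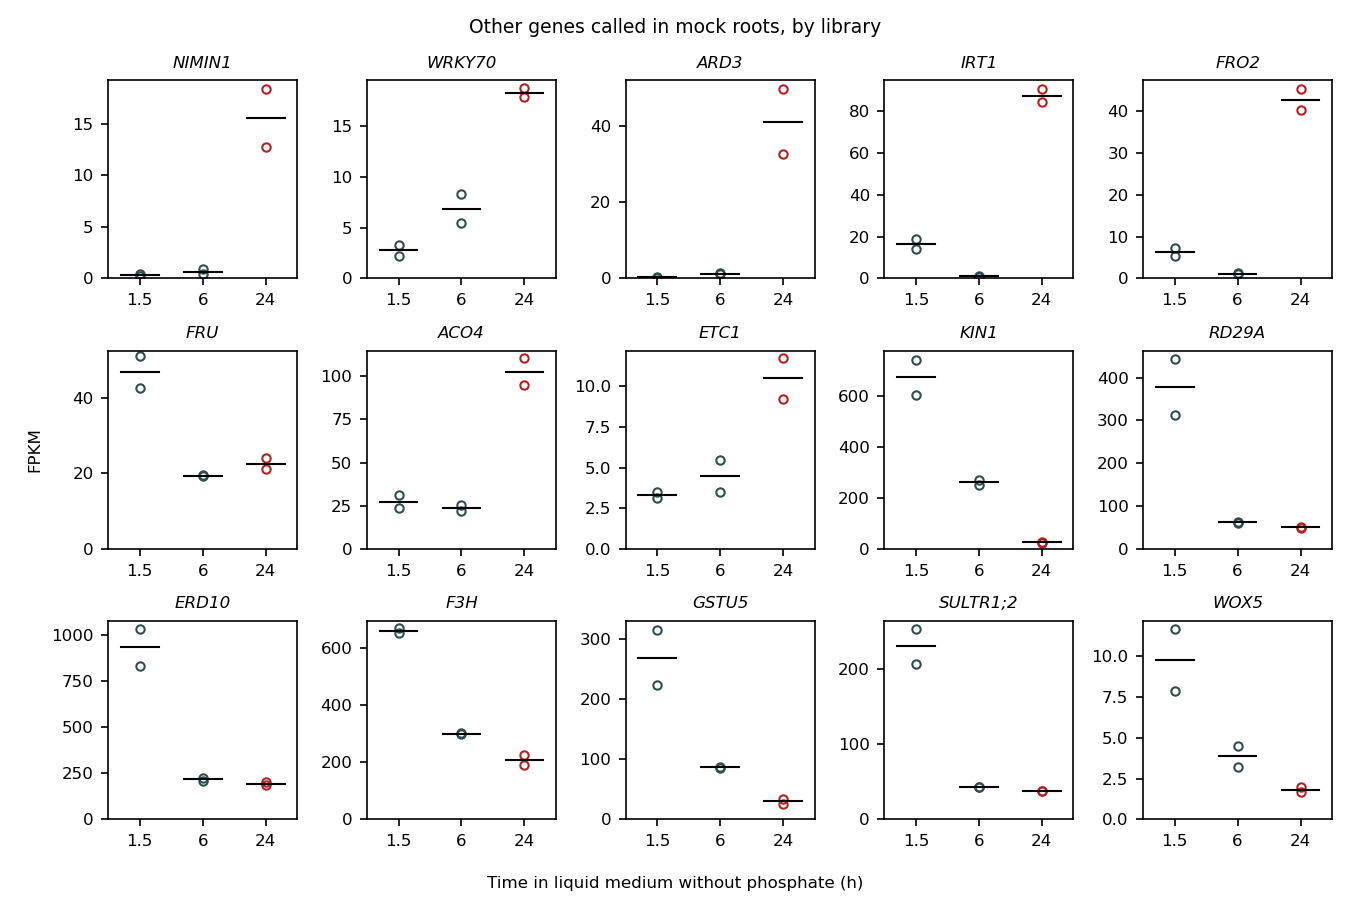
FPKM of 15 further called genes in each mock library (circles; 24 h in red) at 1.5, 6 and 24 h, with horizontal bars at the mean of the 2 libraries and each vertical axis starting at 0. IRT1 and FRO2 were lowest at 6 h, ARD3 and NIMIN1 were high at 24 h alone, and KIN1, RD29A, ERD10 and SULTR1;2 were highest at 1.5 h.

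Aquaporins had 4 of 17 genes higher and 6 lower, with 2 higher without replicate 1 at either time. Of 5 potassium transport genes 2 were lower, and 1 was without replicate 1 at 1.5 h or either replicate at 24 h. The water channel PIP2;3 had 24.7 and 26.7 FPKM at 24 h, against 87.2 and 99.7 FPKM at 1.5 h, a difference of -1.82 ± 0.10 (adjusted p = 6.7e-07), and 17.3% of its exon windows occur elsewhere in the genome. TIP2;3, a vacuolar channel for water and ammonia, had 51.5 and 57.2 FPKM at 24 h, against 28.0 and 29.3 FPKM at 1.5 h, a difference of 0.90 ± 0.14 (adjusted p = 0.00068).

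Clock genes were lower in 12 of 24 tested cases and higher in 1, 54.2% called against 25.0% of all tested genes. Their median was -0.40, and most of these genes were as low at 6 h, with a median share of the change of 1.17 at that time. LNK1 had 8.27 and 7.02 FPKM at 24 h, against 15.4 and 14.4 FPKM at 1.5 h, a difference of -0.88 ± 0.11 (adjusted p = 0.00017). TOC1, an evening repressor, had 37.1 and 38.4 FPKM at 24 h, against 53.1 and 47.3 FPKM at 1.5 h, a difference of -0.40 ± 0.06 (adjusted p = 0.00054), and GI had 26.8 and 23.0 FPKM at 24 h, against 36.1 and 35.5 FPKM at 1.5 h, a difference of -0.51 ± 0.07 (adjusted p = 0.00044). ELF4 had 391 and 386 FPKM at 24 h, against 379 and 416 FPKM at 1.5 h and its groups overlapped. The morning genes CCA1 and LHY were near 1 or 2 FPKM in these libraries, with CCA1 at 0.855 and 0.927 FPKM at 24 h, against 1.70 and 2.07 FPKM at 1.5 h and LHY at 1.06 and 0.866 FPKM at 24 h, against 0.943 and 1.11 FPKM at 1.5 h, and neither was called. RVE8 differed by -0.85 ± 0.15 (adjusted p = 0.0017), ELF3 by -0.49 ± 0.06 (adjusted p = 0.00022) and AT5G52660 by -0.71 ± 0.11 (adjusted p = 0.00077). FKF1, the gene that was higher, had 13.4 and 14.7 FPKM at 24 h, against 8.95 and 10.2 FPKM at 1.5 h.

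The remaining clock calls were weaker. PRR7, PRR3, LUX, RVE2, ZTL and CDF1 were called lower by 0.26 to 0.55, and each of these calls ended in at least 2 of the 4 fits that left out 1 library. The number of lower clock genes was 7 without replicate 1 at either time, 8 without replicate 2 at 24 h and 9 without replicate 2 at 1.5 h. Those not called were PRR9, PRR5, BOA, RVE1, RVE4, LNK2, CHE and COL2 beside CCA1, LHY and ELF4. CCA1, whose groups did not overlap, was called lower in 4 of 15 alternatives, with differences of -0.606 to -1.043. It passed the minimum through 1.5 h alone, which fixes its direction. RVE4 was called lower without replicate 2 at 24 h (-0.67) and PRR9 without replicate 2 at 1.5 h (-1.20). In PRR9, 43.6% of exon windows occur elsewhere in the genome.

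Stress genes divided the 24 h libraries themselves. ADH1, alcohol dehydrogenase and a marker of low oxygen, had 115 and 608 FPKM at 24 h, against 1166 and 992 FPKM at 1.5 h, and was not called (adjusted p = 0.058). The 17 hypoxia genes summed to 1017 and 2541 FPKM at 24 h, against 2710 and 2332 FPKM at 1.5 h, so replicate 1 at 24 h was the low library. With all libraries 2 of these genes were higher and 2 lower, 23.5% called, near the 25.0% of all tested genes. Without replicate 1 at 24 h the counts were 8 higher and 1 lower, and without replicate 2 they were 0 higher and 9 lower. The median was -0.14 with all libraries, 0.59 without replicate 1 at 24 h and -0.74 without replicate 2 at 24 h.

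Early stress factors showed the same pair of libraries apart. WRKY33 had 64.0 and 143 FPKM at 24 h, against 24.7 and 24.0 FPKM at 1.5 h, a difference of 1.93 ± 0.34 (adjusted p = 0.0047). Of 14 genes of the touch and early stress list 5 were higher (35.7%, against 12.9% of all tested genes), WRKY46 among them. The count was 8 without replicate 1 at 24 h and 2 without replicate 2 at 1.5 h. With the 4 compared libraries alone, WRKY33 was not called (adjusted p = 0.055). CYP81F2, a step of indole glucosinolate synthesis, had 10.5 and 71.5 FPKM at 24 h, against 2.89 and 2.03 FPKM at 1.5 h and was not called (adjusted p = 0.17). Heat shock genes were lower in 2 of 12 cases (16.7%, against 12.1% of all tested genes), with a median of -1.08. Without replicate 1 at either time 1 was lower, and without replicate 2 at 1.5 h 3 were, and the median was -0.574 without replicate 1 at 24 h and -1.319 without replicate 2 at 24 h. HSP101, 1 of the 2, was not called in any fit that left out 1 library. The list summed to 61.3 and 108.4 FPKM at 24 h, against 235.4 and 162.4 FPKM at 1.5 h. HSP90.1 had 27.6 and 35.5 FPKM at 24 h, against 85.4 and 66.9 FPKM at 1.5 h, a difference of -1.25 ± 0.19 (adjusted p = 0.0013). Whether these differences between libraries touch other lists was not tested beyond the fits without each library. Ribosomal protein genes were not called in 25 of 26 cases (3.8% called, against 25.0% of all tested genes), with a median of -0.08.

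The times of rise and fall differed. Among genes higher by at least 2-fold, the median share of the change present at 6 h was 0.22, and 399 of 512 (77.9%) had less than 0.5 of their change by then. Among genes lower by at least 2-fold the median share was 0.64, and 271 of 423 (64.1%) had more than 0.5 of it. The abscisic acid list had a median share of 0.90 over its called genes and the flavonoid list 0.60, against 0.15 for suberin and 0.16 for salicylate defence. Not every list followed this order. Energy starvation and jasmonate genes, called only as lower, had median shares of -0.05 and -0.16. Touch and early stress genes, called only as higher, had a median share of 0.83. Iron uptake, with a median of -0.39, was below its 1.5 h level at 6 h.

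**Figure D5:**
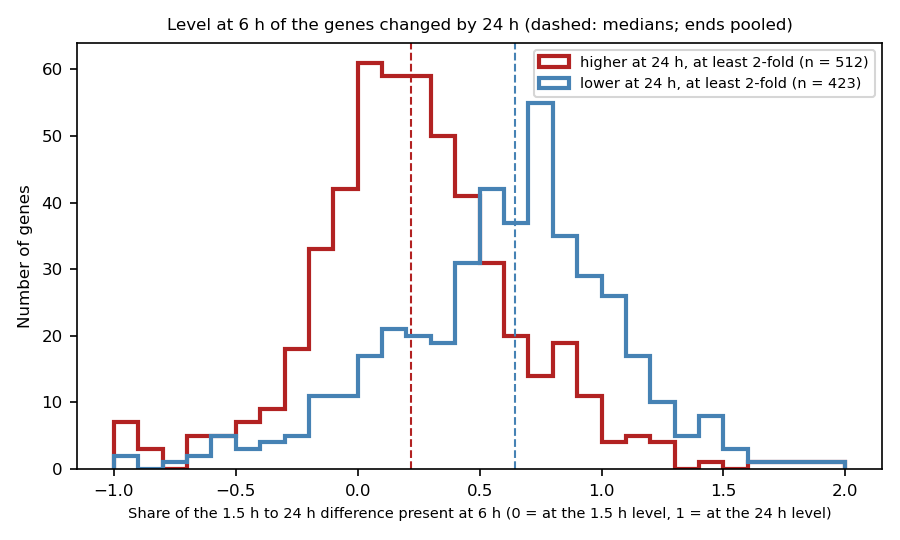
Number of genes by the share of their 24 h minus 1.5 h difference present at 6 h, for the 512 genes higher (red) and 423 genes lower (blue) by at least 2-fold; dashed lines mark the medians of 0.22 and 0.64, and values beyond the ends of the axis are pooled in the last bars. Genes higher at 24 h cluster near the 1.5 h level and genes lower at 24 h nearer the 24 h level.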

How the data were processed

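The deposited values are FPKM for 33557 genes in 12 libraries, and the table of the whole series was the source used. The submitters' processing notes name the TAIR10 build, edgeR, HTSeq 0.6.0, STAR 2.5.4 and Trim Galore, with no role given for each. The annotation version, the strand setting and the scaling formula are not given in the sources used here. Per the labels' protocols, libraries were stranded messenger RNA libraries read from 1 end at 50 bases.

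Within a gene, deposited FPKM values are whole multiples of a step, which was recovered for 15056 of 22373 genes (67.3%) within 0.05 reads. From these steps, or from a relation to exon length minus 205 bases that held for 321 of 2094 single-exon genes, reads were estimated for 32953 genes. They are approximate and served for depth, for weights and for a minimum. Of the genes with at least 1 FPKM in at least 2 of the 12 libraries, 58 had none. Genes in the fit had at least 1 FPKM and 10 estimated reads in at least 2 of the 12 libraries (19884 genes), so 321 of 19345 members were not tested. limma 3.58.1 (R 4.3.3) was fitted to log2(FPKM + 1), a pseudocount of 1, with voom weights from the estimated reads, 1 coefficient per group over all 12 libraries, which share 1 estimate of spread, and robust variances (degrees of freedom: residual 6, prior median 4.72). Benjamini-Hochberg adjustment covered every gene in the fit.

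The 38 lists (467 genes), 6 families and members were chosen with earlier results of these data known. Genes were named by rule: the 10 highest and 10 lowest differences among called genes without overlap and with a mean of at least 5 FPKM, up to 4 of the largest per list or family, all tested genes of the phosphate transport, signalling, lipid and recycling lists and of the clock list, and GL2 and ANL2. Other listed genes named as examples were chosen after their values were seen. Names, coordinates and sequences came from the NCBI RefSeq annotation of TAIR10.1, which named 32810 genes. A search of 50-base exon windows of the 205 genes named by rule found 3 with over 20% of windows elsewhere in the genome. Replicate numbers did not pair the libraries (correlation of deviations 0.00 between 24 h and 1.5 h). Alternatives changed the pseudocount, minimum, weights, scaling, libraries in the fit and replicate block. Precision is limited by 2 libraries per group.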

Additional observations from a re-analysis of the deposited data

How the results depend on the processing

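The 4764 called genes ranged from 3659 to 4904 under other pseudocounts, minimums, weights and scalings and in the fit of the 6 mock libraries, with 2730 higher and 2174 lower when scaled to library totals. These choices moved the counts by over 1.5 times: with the 4 compared libraries alone there were 2852 genes (1428 higher and 1424 lower), and with a minimum of 2-fold there were 935 (512 and 423). The 4-library fit has fewer libraries to estimate the spread, and the 2-fold minimum adds a condition. Leaving out 1 library in turn gave 3286 to 4024 genes, 1558 to 2163 higher and 1642 to 1934 lower, with the fewest higher without replicate 1 (1558) or replicate 2 (1626) at 1.5 h; the remaining library of the group is then assumed to vary like the other groups. The replicate block gave 4759 genes (2454 higher and 2305 lower), and since the numbers do not pair the libraries it says nothing of pairing. Deposited scaling left the median of all genes at -0.01, and library totals at 0.01.

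Of 186 called genes named by rule, 133 stayed called under every alternative they could be tested in (15, or 14 for PHT1;7, PAP14 and RVE8), 53 lost their call in at least 1, and 0 changed sign. Of 19 named by rule and not called, 5 changed sign in some alternative. CHE was at 0.009 with voom on the reads and 0.009 with library totals, and leaving out 1 library gave -0.074 to 0.05 for CHE, -0.174 to 0.137 for COL2, -0.117 to 0.027 for LHY, -0.091 to 0.115 for GL2 and -0.099 to 0.035 for ELF4. The cause of these was not tested. Of 44 list medians, 13 changed sign in some setting, with main medians of -0.14 to 0.29.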
